A study of Mus musculus with 8 samples.

Results

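The 10 genes described here encode transcription factors of the core and naive pluripotency network of mouse embryonic stem cells. They are Pou5f1 (Oct4), Sox2, Nanog, Klf2, Klf4, Klf5, Esrrb, Tfcp2l1, Zfp42 (Rex1) and Nr5a2. They were taken by name from a table of 49641 gene entries, and the set was chosen with earlier results of these data known. Each name matched 1 entry. All 10 passed the filter of a mean level of at least 1 FPKM, as did 12786 entries of the whole table. FPKM counts sequenced fragments per length of transcript and per number of fragments that mapped.

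The study measured RNA in 8 libraries of mouse embryonic stem cells, 2 in each of 4 groups, all labelled as strain 129/C57BL/6 and cell line V6.5. The WT control group has the WT genotype. The Dgcr8 KO control group lacks Dgcr8, the RNA-binding partner of Drosha, which is needed to make canonical microRNAs. The other two groups are Dgcr8 KO cells transfected with miR-294 (here the miR-294 group) or with siRNAs against Mbnl1 and Mbnl2, named siMbnl1/2. Both transfections used 50 nM, 16 hours after plating, and both groups carry the Dgcr8 deletion too. Cells grew with serum and LIF, either on gelatin or on irradiated embryonic fibroblasts as feeders, and the labels do not tell which support served which sample. The table heads the WT columns V65-mock and the Dgcr8 KO columns ES1-mock, so the loss of Dgcr8 and any difference between cell lines cannot be told apart in comparisons of a Dgcr8 KO group with WT. Nothing states that the 2 libraries of a group came from separate cultures, so p-values measure the spread between these libraries, which may be technical.

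Depth is unknown, because FPKM values do not keep read counts. The summed FPKM per library was 564280 and 571508 for WT, 473746 and 502310 for Dgcr8 KO, 542209 and 549479 for miR-294, and 510928 and 516085 for siMbnl1/2. The median standard deviation (SD) of a gene between the 2 libraries of a group, in log2(FPKM + 1), was 0.0462 for WT, 0.102 for Dgcr8 KO, 0.0487 for miR-294 and 0.121 for siMbnl1/2. Dgcr8 itself was at 22.4 ± 0.662 FPKM (SD, n = 2) in WT, at 8.19 ± 0.432 in Dgcr8 KO, at 7.04 ± 0.329 after miR-294 and at 7.24 ± 0.927 after siMbnl1/2; which exons the deletion removes is not given in the sources used here. Mbnl2 was lower with siMbnl1/2 than in Dgcr8 KO (log2 difference -1.01, adjusted p = 0.0191), and Mbnl1 differed by -0.31 without passing the test (adjusted p = 0.158).

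In embryonic stem cells Oct4, Sox2 and Nanog bind many of the same regulatory regions, their own among them, and Oct4 and Sox2 often bind side by side as a pair. The naive state of the pre-implantation epiblast adds a second layer of factors, among them Klf2, Klf4, Klf5, Esrrb, Tfcp2l1 and Nr5a2, several of which respond to LIF through STAT3, and Rex1 serves as a common reporter of that state. The miR-290 cluster is the most abundant source of microRNAs in these cells, and microRNAs of this family repress messages through their seed, the bases that pair with a site in the 3′ untranslated region (UTR).

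The sequences of miR-294 and of its relatives with the same seed are shown because pairing of this seed is what could link the transfected microRNA to a member's message. They are RefSeq entries of build GRCm38.p6, 5′ to 3′, with the seed (bases 2 to 8) in capitals. miR-294-3p lies at chr7:3220691-3220712 on the plus strand. The labels do not say which arm was transfected, and the arm with this seed was used for the search.
miR-294-3p: aAAGUGCUucccuuuugugugu
miR-291a-3p: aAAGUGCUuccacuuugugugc
miR-295-3p: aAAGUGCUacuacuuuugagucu

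The letters AGCACTT (7mer-m8, pairing with the whole seed) and GCACTTA (7mer-A1, pairing with 6 bases of it and followed by A) were sought on the message strand of the 3′ UTRs of 22 annotated transcripts of the 10 genes (GENCODE M21). An AGCACTT or GCACTTA match was found in 1 of the 10 genes (Tfcp2l1), against 19.27% of the 11426 protein-coding genes tested, for each of which 1 transcript was searched. The Tfcp2l1 match begins at base 5772 of a 3′ UTR of 7734 bases. It is shown with its surroundings, chr1:118683194-118683223 on the plus strand of mm10, with the match in capitals.
Tfcp2l1 site: ctcgatggccgAGCACTTcccaactgcgag
For the other nine genes the search says only that these letters are not in the annotated 3′ UTRs.

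The 250 bases before the start site were available from RefSeq (GRCm38.p6) for 9 of the 10 genes, all but Klf5. The letters sought, on both strands, were the octamer ATGCAAA (read by POU factors such as Oct4), the Sox motif ACAATG, the Klf motif CACCC, the half-site AAGGTCA (read by nuclear receptors such as Esrrb and Nr5a2) and the GC box GGGCGG. The octamer letters were shortened by 1 after a first search, so the counts for them are a description and not a test. These 7 letters were in 3 of the 9 promoters, Nanog, Sox2 and Zfp42. They were also in 4.1% of 32851 RefSeq promoters of the same length. CACCC was in 4 of 9 (52.0% of all), GGGCGG in 5 of 9 (32.7%), ACAATG in 1 of 9 (10.7%) and AAGGTCA in 0 of 9 (4.1%). The Klf motif and the GC box can share bases, and a match is a description of the letters, not of binding. The promoters with the octamer are printed because they belong to 2 members that were higher and 1 that was lower in Dgcr8 KO than in WT. Capitals mark all motifs sought, on either strand.
Nanog promoter, chr6:122707239-122707488, plus strand: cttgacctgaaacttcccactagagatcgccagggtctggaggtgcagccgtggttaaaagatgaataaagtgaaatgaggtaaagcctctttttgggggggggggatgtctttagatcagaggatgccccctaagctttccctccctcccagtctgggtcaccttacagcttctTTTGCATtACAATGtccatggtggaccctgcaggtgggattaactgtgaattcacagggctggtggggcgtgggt
Sox2 promoter, chr3:34649745-34649994, plus strand: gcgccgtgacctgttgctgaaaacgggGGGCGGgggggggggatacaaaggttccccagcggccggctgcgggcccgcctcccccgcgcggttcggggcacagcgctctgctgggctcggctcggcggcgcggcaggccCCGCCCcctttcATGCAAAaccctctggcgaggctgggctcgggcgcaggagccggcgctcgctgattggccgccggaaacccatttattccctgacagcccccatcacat
Zfp42 promoter, chr8:43307010-43307259, minus strand: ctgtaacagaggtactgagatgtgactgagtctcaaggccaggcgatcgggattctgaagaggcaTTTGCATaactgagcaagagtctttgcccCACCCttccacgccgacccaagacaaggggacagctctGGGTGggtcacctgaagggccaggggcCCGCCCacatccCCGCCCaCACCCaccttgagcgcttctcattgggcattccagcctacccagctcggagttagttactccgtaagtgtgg
In Nanog the octamer (as TTTGCAT, position -75 from the start) and the Sox motif (position -67) lie side by side. In Sox2 the octamer is at position -99 and in Zfp42 at position -185. The RefSeq start of Sox2 used here lies 410 bases before the start given in the table.

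The comparison of Dgcr8 KO with WT asks how the network differs in cells without canonical microRNAs. The factors did not move as a block. Sox2, Nanog, Klf2 and Tfcp2l1 were higher in Dgcr8 KO, and Pou5f1, Klf5, Zfp42 and Nr5a2 were lower. That is 8 of 10 members called, 4 in each direction, by limma at a threshold of 0.05 on p-values adjusted over all genes tested (Benjamini-Hochberg). The same test called 59.8% of all genes in this comparison, 29.6% higher and 30.1% lower, against which the count of 8 in 10 has to be read. The median log2 difference was -0.25 over the members and 0.00 over all genes tested.

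With miR-294 added to Dgcr8 KO cells, 8 of the 10 members were called. Sox2, Nanog, Klf2 and Tfcp2l1 fell, and Pou5f1, Klf5, Zfp42 and Nr5a2 rose. In this comparison 52.2% of all genes were called, 22.9% higher and 29.2% lower. This comparison and that of Dgcr8 KO with WT use the same Dgcr8 KO libraries, so a high or low value there enters both with opposite sign, and nothing is read from their directions together. In the comparison of miR-294 with WT, which does not use the Dgcr8 KO libraries, 3 of the 10 members still differed: Sox2 and Klf2 were higher and Tfcp2l1 was lower (26.5% of all genes called, 11.8% higher and 14.7% lower). With siMbnl1/2, no member differed from Dgcr8 KO by the test, where 1.11% of all genes were called, 0.868% higher and 0.242% lower.

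**Figure D1:**
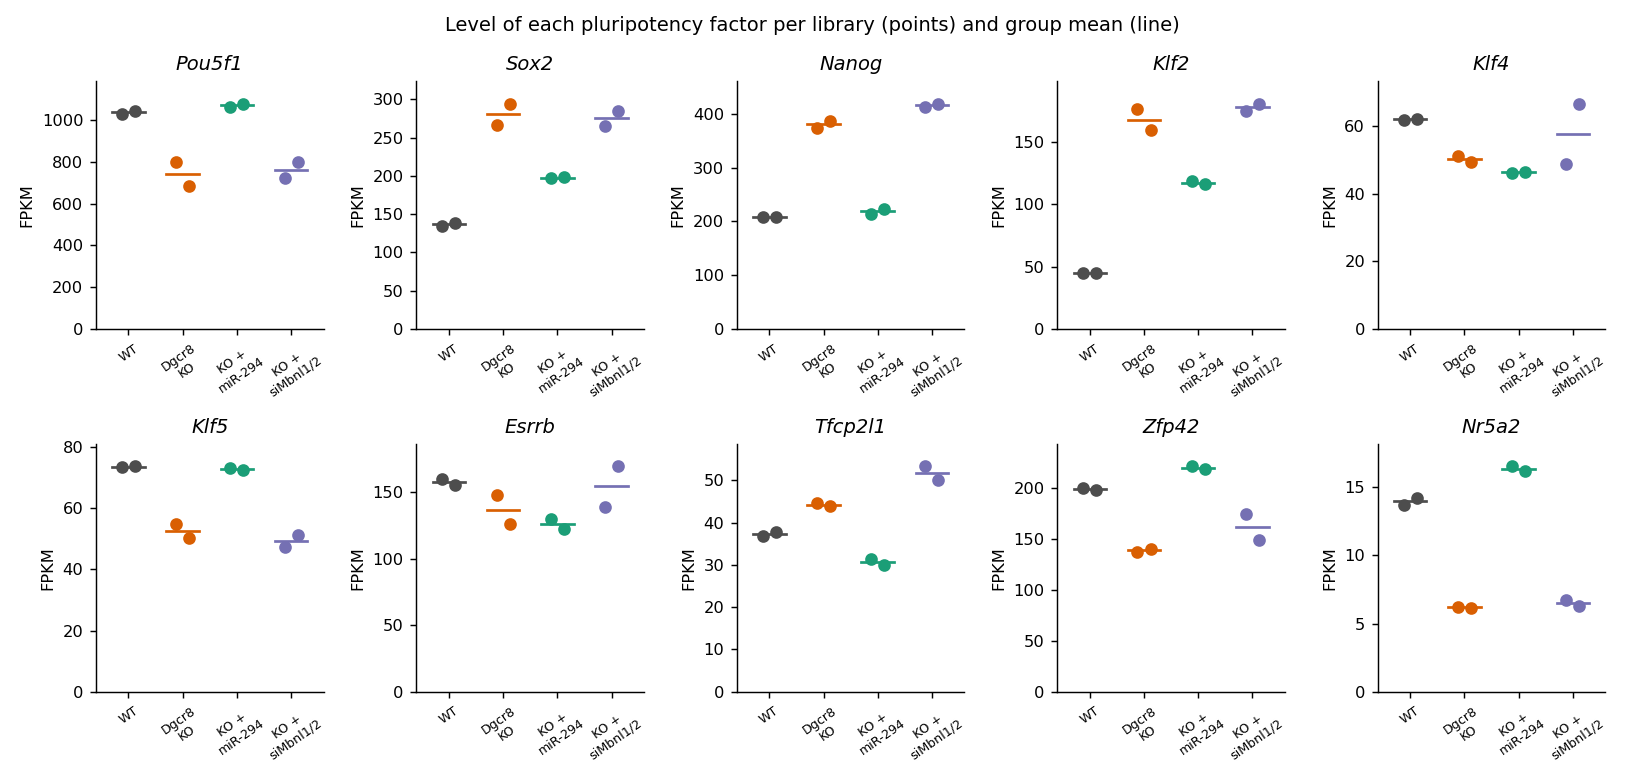
Level of each of the 10 factors in FPKM (vertical axis, from 0) in the 2 libraries of each group (points) with the group mean (line). Sox2, Nanog and Klf2 are lowest in WT and high in Dgcr8 KO and siMbnl1/2, Nr5a2 is high in WT and miR-294, and the siMbnl1/2 libraries of Klf4 sit at 48.7 and 66.6.

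Pou5f1 (chr17:35506018-35510772, mm10, plus strand) encodes the POU factor Oct4, without which the pluripotent state is lost. It was the most abundant member in every group, at 1028 and 1045 FPKM in WT, 799 and 685 in Dgcr8 KO, 1060.2 and 1078 after miR-294, and 723 and 801 after siMbnl1/2. The WT and miR-294 libraries were high, the Dgcr8 KO and siMbnl1/2 libraries low, and the 2 sets did not overlap. Pou5f1 was lower in Dgcr8 KO than in WT by the FPKM values (log2 difference -0.49 ± 0.08 SE, adjusted p = 0.00182), but the difference was -0.03 (adjusted p = 0.720) when all libraries were given the same distribution of values by quantile normalization. miR-294 raised it by 0.53 ± 0.08 (adjusted p = 0.00162), again with a loss of the call under quantile normalization (0.11, adjusted p = 0.143). In WT it had rank 91 among the 12408 genes at 1 FPKM or more. Of all genes, 59.8% were called in Dgcr8 KO minus WT, 29.6% higher and 30.1% lower, with a median difference of 0.00. Of 14 reference genes, 8 were lower and 2 higher in Dgcr8 KO than in WT, with a median of -0.24, and 3 were lower and 4 higher under quantile normalization. Without the first WT library 4 of them were called, and without the second 6. How far the shift of the reference genes, which the median of all genes does not share, enters the values of Pou5f1, Klf5 and Zfp42 was not tested.

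Sox2 (chr3:34650405-34652461, plus strand) encodes the HMG-box partner of Oct4. It was at 134 and 139 FPKM in WT, 267 and 294 in Dgcr8 KO, 197 and 198 after miR-294, and 265 and 285 after siMbnl1/2. The 3 levels, WT lowest, miR-294 between and the other Dgcr8 KO groups highest, were separate in every library. Sox2 rose by 1.03 ± 0.07 from WT to Dgcr8 KO (adjusted p = 2.23e-05) and fell by 0.50 ± 0.07 after miR-294 (adjusted p = 7.89e-04), which left it 0.53 ± 0.07 above WT (adjusted p = 0.00182). The long non-coding RNA Sox2ot, whose locus overlaps Sox2, was at a group mean of at most 1.87 FPKM.

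Nanog (chr6:122707489-122714633, plus strand) encodes the homeodomain factor that sustains self-renewal when LIF signalling is low. It was at 209 and 207 FPKM in WT, 373 and 387 in Dgcr8 KO, 215 and 223 after miR-294, and 412 and 419 after siMbnl1/2. Here miR-294 brought both libraries close to WT. The rise in Dgcr8 KO was 0.87 ± 0.05 (adjusted p = 1.76e-05) and the fall with miR-294 was -0.79 ± 0.05 (adjusted p = 6.06e-05). Between miR-294 and WT the difference was 0.07, with a 95% interval of -0.05 to 0.20 (adjusted p = 0.361). A pseudogene, Nanog-ps1, was at a group mean of at most 1.59 FPKM, and reads that fit both copies could be split between them.

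The ratio of Nanog to Pou5f1 within a library puts the opposite movements side by side and does not depend on the scaling of a library. It was 0.203 and 0.198 in WT, 0.467 and 0.566 in Dgcr8 KO, 0.202 and 0.207 after miR-294, and 0.570 and 0.523 after siMbnl1/2. The ratio of Sox2 to Pou5f1 was 0.131 and 0.133 in WT, 0.334 and 0.430 in Dgcr8 KO, 0.186 and 0.184 after miR-294, and 0.367 and 0.356 after siMbnl1/2. The Nanog ratio with miR-294 lay beside that of WT, while the Sox2 ratio lay between WT and Dgcr8 KO. In bulk RNA, a change in the share of cells that express a factor and a change in its level per cell cannot be told apart.

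Klf2, Klf4 and Klf5 encode zinc-finger factors that share a binding motif and cover for one another in keeping the naive state. They moved apart. Klf2 (chr8:72319033-72321656, plus strand) was at 44.8 and 44.9 FPKM in WT, 176 and 159 in Dgcr8 KO, 119 and 116 after miR-294, and 174 and 180.4 after siMbnl1/2. The Dgcr8 KO and siMbnl1/2 libraries overlapped, and WT and miR-294 were each apart. Its rise of 1.88 ± 0.07 from WT to Dgcr8 KO was the largest of the 10 members (adjusted p = 2.36e-06). With miR-294 it fell by 0.51 ± 0.07 (adjusted p = 6.57e-04), and both miR-294 libraries stayed well above WT, by 1.37 ± 0.07 (adjusted p = 4.12e-05).

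Klf5 (chr14:99298691-99313405) showed the reverse. It was at 73.4 and 73.6 FPKM in WT, 54.9 and 50.3 in Dgcr8 KO, 73.2 and 72.3 after miR-294, and 47.2 and 51.3 after siMbnl1/2. The miR-294 libraries lay beside WT, and the other two groups were lower without overlap. Klf5 fell by 0.48 ± 0.07 in Dgcr8 KO (adjusted p = 8.63e-04) and rose by 0.46 ± 0.07 after miR-294 (adjusted p = 0.00142). Klf4 (chr4:55527143-55532466, minus strand), one of the original reprogramming factors, was at 61.9 and 62.1 FPKM in WT, 51.2 and 49.3 in Dgcr8 KO, 46.2 and 46.5 after miR-294, and 48.7 and 66.6 after siMbnl1/2. The siMbnl1/2 libraries lay on both sides of all WT and Dgcr8 KO values. The Klf4 difference between Dgcr8 KO and WT was -0.30 ± 0.13 and did not pass the test (adjusted p = 0.0789), although the 2 groups did not overlap. It passed (adjusted p = 0.00243 or 0.00245) when either siMbnl1/2 library was left out of the shared fit, and also with only the 4 libraries compared (0.0103) or with weights by group (0.0182). Between miR-294 and Dgcr8 KO it was -0.11 (95% interval -0.41 to 0.19, adjusted p = 0.486). Against siMbnl1/2 the Klf4 calls hung on 1 library: siMbnl1/2 minus miR-294 was 0.29 (adjusted p = 0.0902) and 0.51 (8.81e-04) without the first siMbnl1/2 library, and siMbnl1/2 minus WT was -0.12 (0.447) and -0.34 (0.00417) without the second.

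As a share of the summed FPKM of the 3 Klf genes, Klf2 made up 24.9% and 24.9% in the WT libraries, 62.4% and 61.5% in Dgcr8 KO, 49.8% and 49.3% after miR-294, and 64.5% and 60.5% after siMbnl1/2. Klf5 made up 40.8% of the sum in WT and 19.5% in Dgcr8 KO, as group means. The leading member of the trio was thus Klf5 in WT and Klf2 in the other three groups. The sum itself was 180.4 ± 0.462 FPKM in WT, 270.3 ± 16.5 in Dgcr8 KO, 236 ± 2.52 after miR-294 and 284 ± 19.95 after siMbnl1/2 (SD, n = 2).

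**Figure D2:**
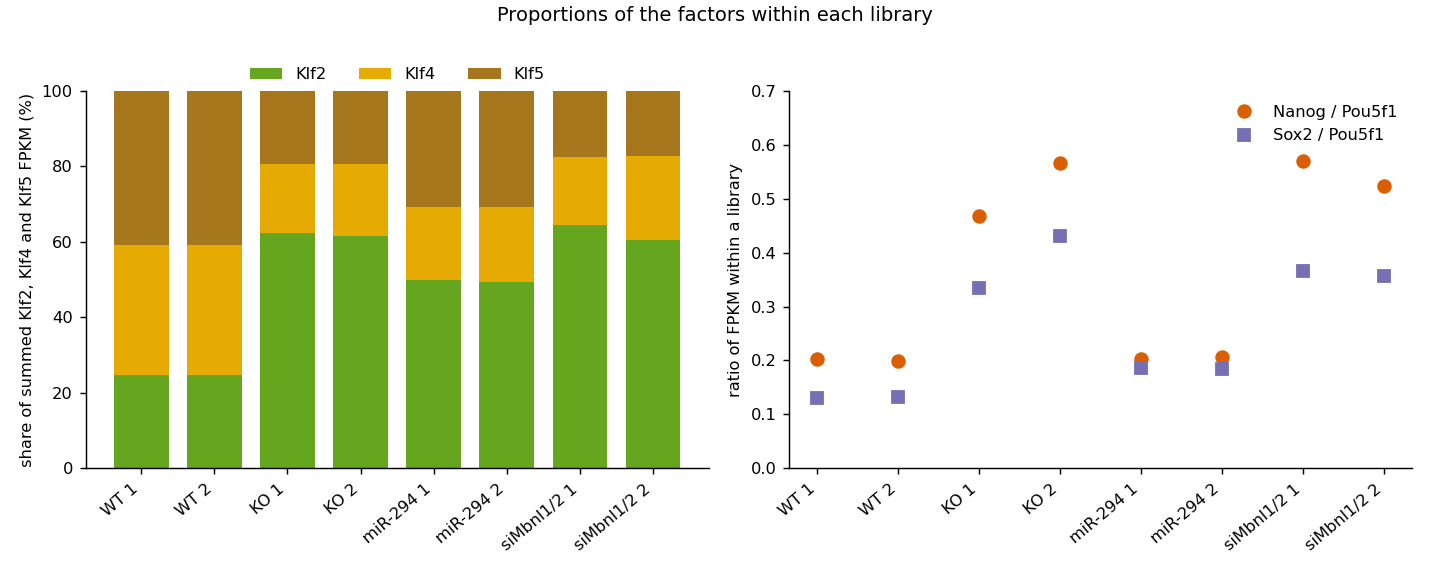
Left, the share of Klf2, Klf4 and Klf5 in their summed FPKM (percent, stacked bars) in each of the 8 libraries. Right, the ratio of Nanog (circles) and Sox2 (squares) to Pou5f1 within each library, where the miR-294 libraries lie at 0.202 and 0.207 for Nanog, beside WT, and at 0.186 and 0.184 for Sox2, above WT.

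Esrrb (chr12:86361117-86521628, plus strand) encodes an orphan nuclear receptor that can stand in for Nanog. It was at 160.0 and 156 FPKM in WT, 148 and 126 in Dgcr8 KO, 130.1 and 122 after miR-294, and 139 and 169 after siMbnl1/2. The Dgcr8 KO and miR-294 libraries overlapped, and so did Dgcr8 KO and siMbnl1/2. No comparison of Esrrb passed the test: it was -0.21 (95% interval -0.46 to 0.05, adjusted p = 0.138) between Dgcr8 KO and WT, 0.11 with the sign reversed under quantile normalization, and -0.11 (-0.37 to 0.14, adjusted p = 0.421; -0.34 and 0.0266 under quantile normalization) between miR-294 and Dgcr8 KO. Between siMbnl1/2 and miR-294 it was 0.28 (adjusted p = 0.0632), and it passed under quantile normalization (0.00758), without either Dgcr8 KO library (0.0492 and 0.0493) and without the first siMbnl1/2 library (0.0117). In siMbnl1/2 the second library was the higher one for both Esrrb and Klf4.

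Tfcp2l1 (chr1:118627945-118685168, plus strand) encodes a CP2-family factor downstream of LIF and STAT3. Its levels were 36.8 and 37.8 FPKM in WT, 44.6 and 43.9 in Dgcr8 KO, 31.4 and 30.1 after miR-294, and 53.3 and 50.1 after siMbnl1/2. The 4 groups were separate, in the order miR-294, WT, Dgcr8 KO, siMbnl1/2. This was the smallest called rise in Dgcr8 KO (0.24 ± 0.07, adjusted p = 0.0141), and it missed the threshold when either WT library was left out (adjusted p = 0.101 and 0.0633). The fall with miR-294 was -0.51 ± 0.07 (adjusted p = 5.94e-04). Tfcp2l1 is the member with the AGCACTT match printed above, and whether that match has a part in its levels was not tested. It was the 1 member for which miR-294 went past the WT level by the test (-0.27 ± 0.07 against WT, adjusted p = 0.0213). That last call was lost (adjusted p = 0.0710 to 0.147) under median-of-ratios scaling, under quantile normalization and when any of the 4 WT and miR-294 libraries was left out.

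Zfp42 (chr8:43295063-43306980, minus strand) encodes the zinc-finger protein Rex1. It was at 199 and 197 FPKM in WT, 137 and 140.2 in Dgcr8 KO, 221 and 218 after miR-294, and 174 and 149 after siMbnl1/2. Both miR-294 libraries were above both WT libraries, and both Dgcr8 KO libraries were below all others. Zfp42 fell by 0.51 ± 0.08 in Dgcr8 KO (adjusted p = 9.16e-04), a call lost under quantile normalization (-0.19, adjusted p = 0.0776), and rose by 0.66 ± 0.08 after miR-294 (adjusted p = 4.18e-04).

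Nr5a2 (chr1:136842571-136960448, minus strand) encodes the nuclear receptor Lrh-1, which binds regulatory elements of Pou5f1 and Nanog. It was the least abundant member in every group, at 13.7 and 14.2 FPKM in WT, 6.25 and 6.13 in Dgcr8 KO, 16.5 and 16.2 after miR-294, and 6.72 and 6.28 after siMbnl1/2. The WT and miR-294 libraries were high and the others low, without overlap. Nr5a2 had the largest fall among the members in Dgcr8 KO (-1.06 ± 0.08, adjusted p = 3.23e-05) and the largest rise with miR-294 (1.27 ± 0.08, adjusted p = 4.78e-05). Both miR-294 libraries were above both WT libraries, by 0.22 (adjusted p = 0.0767), which did not pass the test. The difference passed under median-of-ratios scaling (0.28, adjusted p = 0.040). As a description with no test, the ratio of Nr5a2 to Esrrb was 0.0858 and 0.0913 in WT, 0.0423 and 0.0486 in Dgcr8 KO, and 0.127 and 0.132 after miR-294.

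**Figure D3:**
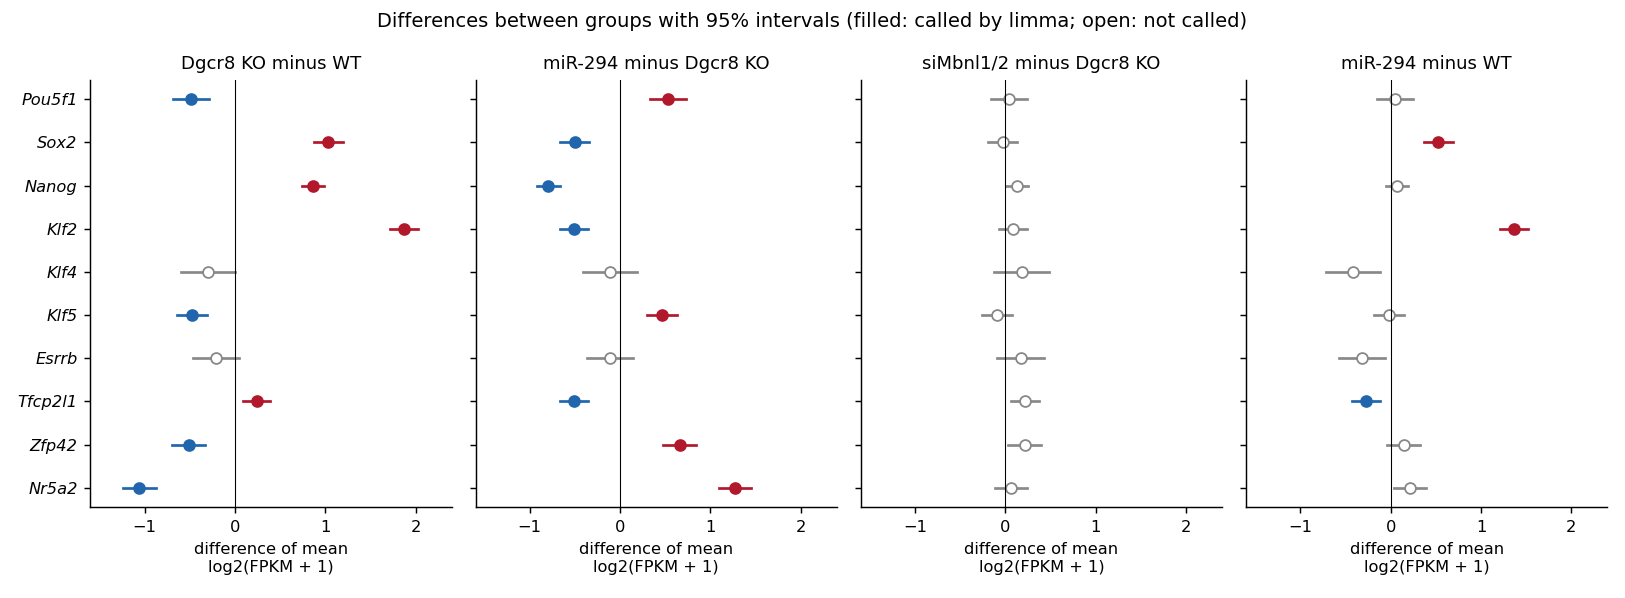
Differences between groups of mean log2(FPKM + 1) for each factor (points) with 95% intervals (lines). Filled red points were called higher, filled blue points lower and open points not called. The first 2 panels share the Dgcr8 KO libraries with opposite sign, so nothing is read from their opposite directions. The siMbnl1/2 minus Dgcr8 KO panel has no called member.

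The comparison of miR-294 with WT shows how near the treated cells came to WT. Nanog, Pou5f1 and Klf5 differed by 0.07, 0.05 and -0.02, with 95% intervals of -0.05 to 0.20, -0.15 to 0.24 and -0.18 to 0.15, and the small Klf5 difference changed sign under median-of-ratios scaling (0.05) and quantile normalization (0.04). Sox2 and Klf2 were higher than WT by 0.53 and 1.37 in both libraries. Klf4 (-0.41, adjusted p = 0.0508), Esrrb (-0.32, adjusted p = 0.0676), Nr5a2 (0.22, adjusted p = 0.0767) and Zfp42 (0.15, adjusted p = 0.206) did not pass. These 4 were called, which brought the count from 3 to 7 of 10, when the fit held only the 4 WT and miR-294 libraries, when each group had its own weight, or when either siMbnl1/2 library was left out. Calls over all 12786 genes rose in these settings too, from 3390 to 6311 with only the 4 libraries and to 6669 with weights by group. The rise to 7 of 10 is therefore not particular to the members. Klf4 also passed with 0.1 in place of 1 added to FPKM (adjusted p = 0.048) and with a filter of at least 5 FPKM (adjusted p = 0.046). Nr5a2 also passed under median-of-ratios scaling (adjusted p = 0.040). The WT and miR-294 groups have the smaller spread between libraries, and the shared fit gives all groups 1 spread per gene.

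The comparison of siMbnl1/2 with Dgcr8 KO asks whether lowering the muscleblind splicing regulators, whose messages were higher in Dgcr8 KO than in WT, shifts the same factors. The largest difference among the members was 0.22 in Tfcp2l1 (95% interval 0.07 to 0.37, adjusted p = 0.139), followed by 0.21 in Zfp42 (0.03 to 0.39, adjusted p = 0.202), 0.18 in Klf4 (-0.12 to 0.48) and 0.17 in Esrrb (-0.09 to 0.42). Tfcp2l1, Zfp42, Nanog and Nr5a2 were higher in both siMbnl1/2 libraries than in both Dgcr8 KO libraries, as were 24.8% of all genes tested; 38.7% did not overlap in either direction, so 4 of 10 members is near the background. At an unadjusted p under 0.05 by limma, 3 members had values above Dgcr8 KO (Tfcp2l1, Zfp42 and Nanog), beside 12.7% of all genes above and 18.4% in either direction. Leaving out the first siMbnl1/2 library gave a call for Klf4 (0.40, adjusted p = 0.0419), and leaving out the second gave a call for Zfp42 (0.33, adjusted p = 0.0299). For Klf2, Sox2 and Pou5f1 the intervals were -0.07 to 0.24, -0.19 to 0.13 and -0.16 to 0.24, and the differences between miR-294 and Dgcr8 KO in these genes (-0.51, -0.50 and 0.53) lay outside them. These intervals leave out the error of the miR-294 differences, and both comparisons use the same Dgcr8 KO libraries. The direct comparison of siMbnl1/2 with miR-294 follows.

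Set directly against miR-294, the siMbnl1/2 group had 4 members higher (Nanog, Tfcp2l1, Klf2 and Sox2, by 0.92, 0.73, 0.59 and 0.48) and 4 lower (Nr5a2, Klf5, Pou5f1 and Zfp42, by -1.21, -0.55, -0.49 and -0.45). All 8 were called, as were 54.0% of all genes. The calls of these 8 were kept in all 17 alternative settings. In this comparison the median of all genes was 0.10 and moved to 0.00 under median-of-ratios scaling and to -0.02 under quantile normalization, with 4217 genes higher and 2685 lower by FPKM against 3477 and 3461, and 3128 and 3378. Against WT, 8 members were called in siMbnl1/2, 4 in each direction, with 60.5% of all genes called. Of these, Zfp42 (-0.30, adjusted p = 0.0117) missed the threshold without either WT library (adjusted p = 0.0668 and 0.0571) and under quantile normalization (adjusted p = 0.798), as Pou5f1 did under the latter (adjusted p = 0.194).

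The order of the members by level also changed. In WT it ran Pou5f1, Nanog, Zfp42, Esrrb, Sox2, Klf5, Klf4, Klf2, Tfcp2l1, Nr5a2, and no neighbours overlapped between their libraries. In Dgcr8 KO it ran Pou5f1, Nanog, Sox2, Klf2, Zfp42, Esrrb, Klf5, Klf4, Tfcp2l1, Nr5a2, where Zfp42 overlapped Esrrb and Klf5 overlapped Klf4. Klf2 thus moved from rank 8 to rank 4 and Sox2 from rank 5 to rank 3. With miR-294 Zfp42 and Nanog overlapped at ranks 2 and 3, Sox2 had rank 4 and Klf2 rank 6. Among all genes at 1 FPKM or more in a group, 16.7% had a higher level than Klf2 in WT and 2.91% in Dgcr8 KO. For Nr5a2 these shares were 42.8% and 66.7%. The summed FPKM of the 10 members was 1969 ± 10.1 in WT, 1999 ± 81.3 in Dgcr8 KO, 2115 ± 8.46 after miR-294 and 2111 ± 95.1 after siMbnl1/2. As a share of each library's summed FPKM, the members made up 0.343% and 0.350% in WT and 0.409% and 0.410% in Dgcr8 KO. The shares were 0.389% and 0.386% after miR-294, and 0.400% and 0.422% after siMbnl1/2.

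The wider pluripotency network was given by a list of 30 other genes, all tested. In Dgcr8 KO 7 were higher and 17 lower than in WT (median -0.42 against 0.00 over all genes), and with miR-294 18 rose and 6 fell against Dgcr8 KO (median 0.37 against -0.06). Of all genes, 29.6% were called higher and 30.1% lower in the first comparison, and 22.9% and 29.2% in the second. In siMbnl1/2 minus Dgcr8 KO the share called was 1.11%. The first 2 comparisons use the same Dgcr8 KO libraries with opposite sign, so nothing is read from their directions together. Under quantile normalization the counts in the list were 10 and 14 for Dgcr8 KO and 14 and 6 for miR-294. Lefty1, an antagonist of Nodal, was at 9.65 ± 0.543 FPKM (SD, n = 2) in WT, 97.1 ± 19.5 in Dgcr8 KO, 23.9 ± 1.51 after miR-294 and 86.9 ± 9.01 after siMbnl1/2. Gbx2, a homeobox gene downstream of STAT3, went the other way, with 45.0 and 47.1 FPKM in WT, 6.22 and 7.10 in Dgcr8 KO, 35.8 and 38.5 after miR-294, and 6.25 and 3.55 after siMbnl1/2. Dnmt3l, a cofactor of de novo DNA methylation, was at 240 and 234 FPKM in WT, 75.1 and 75.2 in Dgcr8 KO, and 432 and 435 after miR-294, so that here both miR-294 libraries were above both WT libraries. With siMbnl1/2 1 gene of the list was called, the germline and preimplantation gene Dppa3 (also known as Stella), at 11.5 and 9.58 FPKM against 5.42 and 5.42 in Dgcr8 KO (0.84, adjusted p = 0.0190); the number called in the list ran from 0 to 8 as single libraries were left out.

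The LIF receptor and STAT3 pathway, which feeds several of the naive factors, was measured by 11 tested genes. In Dgcr8 KO 6 were higher and 4 lower, and with miR-294 2 rose and 7 fell, a count that dropped from 9 to 4 or 5 without either miR-294 library or the first Dgcr8 KO library. Of all genes, 59.8% were called in Dgcr8 KO minus WT and 52.2% in miR-294 minus Dgcr8 KO. Il6st encodes gp130, the signalling subunit shared by LIF and related cytokines. It was at 14.1 and 14.0 FPKM in WT, 49.3 and 48.6 in Dgcr8 KO, 18.5 and 20.1 after miR-294, and 32.3 and 47.2 after siMbnl1/2. Both Dgcr8 KO libraries were far above WT (1.73 ± 0.15, adjusted p = 7.28e-05) and miR-294 lowered the message (-1.30 ± 0.15, adjusted p = 4.28e-04). Of the receptor-bound kinases, Jak2 rose by 1.77, Jak1 by 0.93 and Tyk2 by 0.37 in Dgcr8 KO. The 4 genes called lower in Dgcr8 KO were Gab1 (-0.85), Ptpn11 (-0.55), Pim1 (-0.41) and Lif (-0.41). Stat3 itself was not called (0.24, adjusted p = 0.112). With miR-294, Jak2 and Jak1 fell (-1.35 and -0.59), and the difference of Tyk2 was -0.18 (adjusted p = 0.2497), with groups that overlapped.

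Of 24 tested paralogs of the members, other genes of the Klf, Sox, POU, Esrr, Tfcp2 and Grhl, and Yy groups, 7 were higher and 5 lower in Dgcr8 KO, and 10 rose and 7 fell with miR-294. The counts here have to be read against 59.8% of all genes called in Dgcr8 KO minus WT and 52.2% in miR-294 minus Dgcr8 KO. Tfcp2, a relative of Tfcp2l1, was at 2.90 and 2.80 FPKM in WT, 9.61 and 8.66 in Dgcr8 KO and 3.51 and 3.24 after miR-294. It moved in the same directions as Tfcp2l1 (1.40 ± 0.10 in Dgcr8 KO and -1.21 ± 0.10 after miR-294). Ubp1, another gene of this family in the list, was lower in Dgcr8 KO than in WT (-0.46, adjusted p = 0.00157). It was at 45.0 and 40.6 FPKM in WT, 30.7 and 31.1 in Dgcr8 KO, and 38.7 and 41.3 after miR-294. Klf11 rose in Dgcr8 KO (1.09 ± 0.10) and Klf12 fell (-1.14 ± 0.12). Among 12 genes of the formative and primed epiblast, the state that follows the naive one, 5 were higher and 5 lower in Dgcr8 KO: the homeobox gene Otx2 went from 2.99 and 2.83 to 19.1 and 18.9 FPKM, and the FGF-responsive Etv4 from 153 and 148 to 26.6 and 23.5.

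Markers of other cells moved with the groups too. All 10 tested markers of primitive endoderm, the extra-embryonic lineage that forms beside the epiblast, were lower in Dgcr8 KO than in WT. The 12 markers of the list summed to 204 FPKM in both WT libraries, 22.3 and 26.1 in Dgcr8 KO, 27.7 to 28.9 after miR-294 and 25.3 to 32.3 after siMbnl1/2. In Dgcr8 KO 9 of them lay under 1 FPKM and Hnf4a was listed at 0 in both libraries. With miR-294, 5 of the 10 tested markers rose (Sox7, Gata6, Lama1, Dab2 and Amn) and Gata4 fell, and all 10 were still lower than in WT. The part of these markers in the members' differences was not tested. Of 12 fibroblast markers, which feeder cells would bring, 9 lay under 1 FPKM in every group, Lum and Dcn were listed at 0 in WT and Postn and Lum in Dgcr8 KO. Their sum, 73.8 to 74.5 FPKM in WT and 133 to 155 in Dgcr8 KO, was nearly all Fn1, which stem cells express as well. Of 10 markers of trophectoderm tested, 4 were higher and 4 lower in Dgcr8 KO, and 4 rose and 3 fell with miR-294. Among all genes, 59.8% were called in the first of these comparisons and 52.2% in the second. The 8 markers of two-cell-like cells in the table summed to 51.7 and 154 FPKM in the siMbnl1/2 libraries against 27.7 to 30.5 in Dgcr8 KO. None of the 8 was called between siMbnl1/2 and Dgcr8 KO, but 3 were without the first siMbnl1/2 library and 8 without the second. Their part in the spread of Klf4 and Esrrb in that group was not tested.

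**Figure D4:**
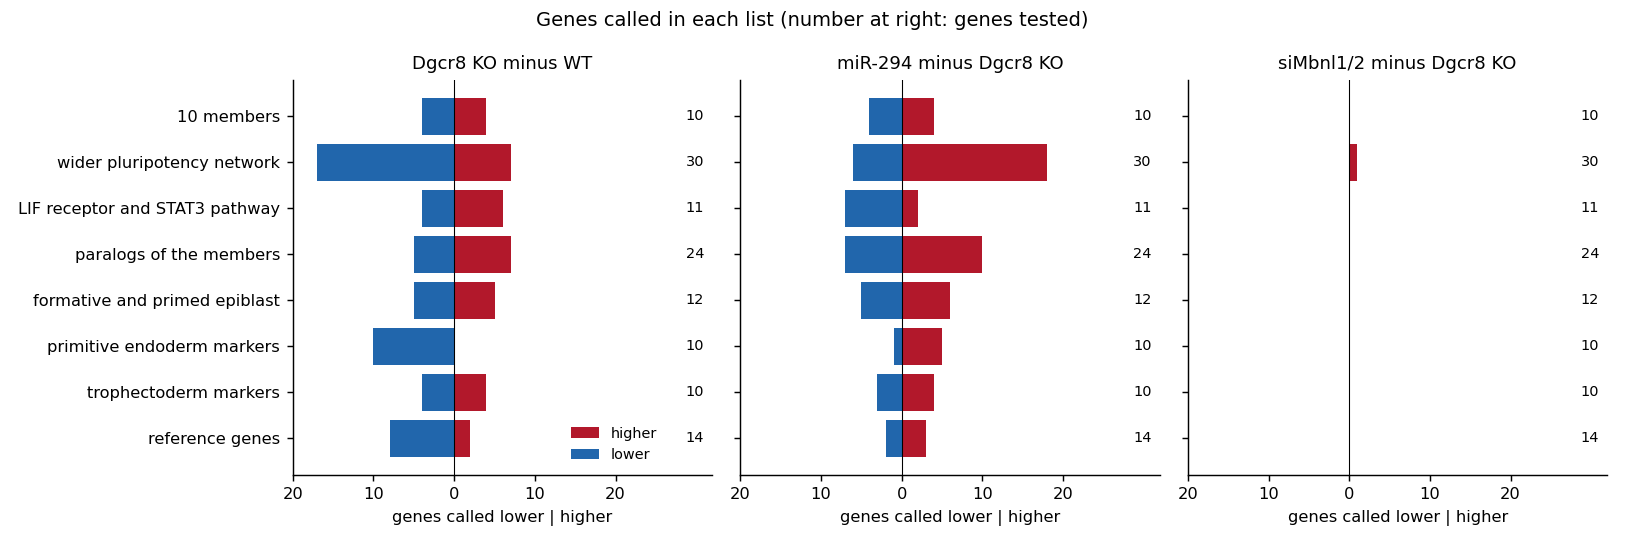
Number of genes called higher (red, to the right) and lower (blue, to the left) in each list for 3 comparisons, with the number of genes tested at the right of each panel. The 10 members split 4 and 4 in the first 2 panels, the wider network of 30 genes has 17 lower and then 18 higher, and the third panel has 1 call, in the wider network. Of all genes, 59.8%, 52.2% and 1.11% were called in the 3 comparisons. The first 2 panels share the Dgcr8 KO libraries with opposite sign.

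The genes most like each member in pattern were found by the distance between their log2(FPKM + 1) values over the 8 libraries, each centred on its own mean, among 6415 genes with a mean of at least 10 FPKM. Smaller distances mean closer values. The values were not scaled, so the distance grows with the size of a gene's changes as well as with a different shape. Klf5 had the closest neighbours: the glycolytic enzyme gene Pgk1 at a distance of 0.0656 and Cdca8, a gene of the chromosomal passenger complex, at 0.0831. Pgk1 is also one of the 14 reference genes. For Pou5f1 they were Ubac1 (0.0979) and Ranbp3 (0.101), for Zfp42 Tomm22 (0.103) and Aqr (0.119), and for Nanog Ap3b1 (0.121) and Myo1e (0.156). Nr5a2 was nearest to Gldc (0.169), the glycine decarboxylase gene, and to the imprinted gene Peg10 (0.189), which were at 49.7 and 65.3 FPKM in WT, 23.6 and 32.9 in Dgcr8 KO and 57.0 and 81.4 after miR-294. Klf2 had the farthest nearest neighbours, Zc3hav1 (0.287) and Galnt6 (0.315). Their Pearson correlations with Klf2 over the 8 libraries were 0.995 and 0.992, against 0.964 between Klf4 and its nearer neighbour Rogdi. Sox2 was nearest to Golga2 and Brms1l (0.171 and 0.174). Klf4 (Rogdi 0.153) and Esrrb (Llgl2 0.113) had Mtfr1l as a further neighbour in common.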

How the data were processed

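Polyadenylated RNA, as the sample labels call it (the series design says total RNA), was sequenced in 8 libraries. The authors deposited FPKM per gene and library, made with STAR 2.5.0, Cufflinks 2.2.1 and the build mm10, per the submitters' processing notes; the annotation release is not given in the sources used here. FPKM are relative to each library's total, so abundant transcripts that change move all others. Values were taken as log2(FPKM + 1), where changes of low genes are understated. The 12786 genes whose mean reached 1 FPKM were fitted with 4 group means over all 8 libraries by limma 3.58.1 in R 4.3.3 (data.table package 1.17.8), with a trended, robust variance. Tests were two-sided, with Benjamini-Hochberg adjustment over all genes tested, called under 0.05. The script was tested on simulated data with known changes in 200 of 12786 genes. It recovered 46.6% of log2 changes of 0.5 and 94.3% of changes of 1, and 5.59% of its calls were false. The simulation gave all 8 libraries the same spread per gene, whereas the median SD of the groups ran from 0.0462 in WT to 0.121 in siMbnl1/2. In Dgcr8 KO minus WT itself 59.8% of genes were called. For both reasons these shares need not hold in the data.

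The 10 members, the gene lists and the tests were chosen with earlier results of these data known. Named genes are the members, Dgcr8, Mbnl1 and Mbnl2, the most changed called genes of each list (up to 3 in Dgcr8 KO minus WT and in miR-294 minus Dgcr8 KO, up to 2 in siMbnl1/2 minus Dgcr8 KO), and the 2 nearest patterns per member; of these, the text gives those it needs. The nearest patterns of Tfcp2l1 are not reported here. Hnf4a, Lum, Dcn and Postn are named because they were at 0, and Sox2ot and Nanog-ps1 for their overlap or likeness. Tyk2, Dab2, Amn, Gab1, Ptpn11, Pim1, Lif, Stat3 and Ubp1 are named to complete counts or to show genes that went another way. All of these were named after their values were seen. Gene starts, which the table counts from 0, are printed from 1. Transcripts came from GENCODE M21; microRNAs and promoters from RefSeq (GRCm38.p6). The octamer was shortened by 1 letter after a first search. In 17 alternative settings the pseudocount (0.1), the filter (none, or a mean of at least 5), the scaling, the variance model, the libraries fitted and a replicate block were changed one at a time.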

Additional observations from a re-analysis of the deposited data

How the results depend on the processing

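Each of the 60 differences of the members was recomputed in 17 settings. Members called ranged from 6 to 9 for Dgcr8 KO minus WT, stayed at 8 for miR-294 minus Dgcr8 KO, and ranged from 0 to 1 for siMbnl1/2 minus Dgcr8 KO, 8 to 10 for siMbnl1/2 minus miR-294, 2 to 7 for miR-294 minus WT and 6 to 9 for siMbnl1/2 minus WT. For miR-294 minus WT the count was 7 with only the 4 libraries of the comparison, 7 with weights by group, and 2 to 7 as single libraries were left out; for siMbnl1/2 minus Dgcr8 KO it was 0 to 1 as they were left out. Signs changed only in differences that were not called. Under quantile normalization these were Esrrb in Dgcr8 KO minus WT (0.11), Pou5f1 (-0.0661) and Nr5a2 (-0.0067) in siMbnl1/2 minus Dgcr8 KO, Klf5 in miR-294 minus WT (0.0417), and Klf4 (0.0381) and Esrrb (0.23) in siMbnl1/2 minus WT. Under median-of-ratios scaling they were Pou5f1 in siMbnl1/2 minus Dgcr8 KO (-0.0134) and Klf5 in miR-294 minus WT (0.0499). As single libraries were left out, Esrrb ran from -0.22 to 0.00081 in miR-294 minus Dgcr8 KO; Pou5f1 from -0.0698 to 0.15, Sox2 from -0.0987 to 0.0418 and Klf4 from -0.0427 to 0.40 in siMbnl1/2 minus Dgcr8 KO; and Klf4 from -0.34 to 0.10 and Esrrb from -0.18 to 0.10 in siMbnl1/2 minus WT. Beyond those already given in the report, the cause of these changes was not tested. With the replicate block, the members called were 8, 8, 0, 8, 3 and 8 in the order above. The replicate numbers share no stated day or culture, and the deviations of same-numbered libraries from their group means correlated at -0.0495 to 0.192 across genes, so they were not taken as pairs. Over all genes, siMbnl1/2 minus Dgcr8 KO had 142 calls (111 higher, 31 lower), 175 with a pseudocount of 0.1, 61 without a filter, 172 (97 and 75) under median-of-ratios scaling, 204 (116 and 88) under quantile normalization, 4 with only its 4 libraries, 8 with weights by group, 33 with the replicate block, and 15 to 650 as single libraries were left out. For miR-294 minus WT the 3390 calls became 6311 with 4 libraries, 6669 with weights by group and 1242 to 4578 as libraries were left out. Depth is unknown, so counting error could not be given.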
